A study of Homo sapiens with 6 samples.

Results

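The loci of RUNX1, RUNX2 and RUNX3 were examined for RUNX1 binding and histone acetylation in ME-1 cells with and without AI-10-49. Members were all deposited peaks that overlapped 1 of 3 windows of build hg19, chr21:36100001-36550000 around RUNX1 (450 kb), chr6:45250001-45570000 around RUNX2 (320 kb) and chr1:25180001-25340000 around RUNX3 (160 kb). They held 365 of the 145457 peaks of the 4 lists, 271 at RUNX1, 83 at RUNX2 and 11 at RUNX3. Peaks of the RUNX1 antibody are called sites below, and peaks of the H3K27ac antibody are called regions.

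RUNX1, RUNX2 and RUNX3 encode the mammalian RUNX transcription factors, which share the Runt domain, bind the core sequence TGTGGT or TGCGGT and are stabilised on DNA by CBFβ. RUNX1 is required for the formation of blood stem cells, RUNX2 for bone formation, and RUNX3 acts in T cells and sensory neurons. RUNX factors are known to bind regulatory sequence of their own genes and of the other family members, and each gene is transcribed from a distal and a proximal promoter. H3K27ac, the acetylation of lysine 27 of histone H3, marks active promoters and enhancers.

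ME-1 is an established human acute myeloid leukemia line with inv(16), an inversion that joins CBFB to MYH11, so cells of both conditions carry the fusion protein CBFβ-SMMHC, which holds RUNX1 in place of CBFβ. AI-10-49 is an inhibitor designed to release RUNX1 from the fusion protein. One group received AI-10-49 (1 µM) and the control group DMSO, each for 6 h, and the study asked how the inhibitor alters chromatin. Each antibody and condition had 1 library of this 1 line, so differences below have no replicate spread and no p-value, and intervals (95%) cover counting error only.

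Core motifs were looked for in the promoters that RefSeq lists for the 3 genes (build GRCh38.p14), from 250 bases before to 50 bases after a start, on both strands, as TGTGGT or TGCGGT or their complements ACCACA and ACCGCA, and overlapping matches would each be counted. The 5 promoters matched were 1 of RUNX1, 2 of RUNX2 and 2 of RUNX3. The upstream promoter of RUNX2 (plus strand, chr6:45328080-45328379) held 5 matches and that of RUNX3 (minus strand, chr1:24964961-24965260) held 2. The single promoter listed for RUNX1 (minus strand, chr21:34888650-34888949), the downstream RUNX2 promoter (chr6:45422025-45422324) and the downstream RUNX3 promoter (chr1:24930227-24930526) held 0. Of 35116 promoters of the same length in the table, 19.6% held a match and 0.256% held at least 3. The 250 bases before each upstream start are shown because they carry matches, which are in capitals.
RUNX2 upstream promoter: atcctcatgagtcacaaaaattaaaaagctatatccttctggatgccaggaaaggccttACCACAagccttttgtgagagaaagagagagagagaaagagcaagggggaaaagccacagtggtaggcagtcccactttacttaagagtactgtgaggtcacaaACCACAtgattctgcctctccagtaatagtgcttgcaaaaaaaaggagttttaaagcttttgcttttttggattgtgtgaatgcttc
RUNX3 upstream promoter: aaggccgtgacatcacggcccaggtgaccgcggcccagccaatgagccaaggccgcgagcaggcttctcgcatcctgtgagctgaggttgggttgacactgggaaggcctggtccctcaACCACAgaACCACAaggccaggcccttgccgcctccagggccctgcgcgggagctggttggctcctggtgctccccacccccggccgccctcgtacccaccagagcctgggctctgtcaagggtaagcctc

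Both upstream promoters held 2 copies of ACCACA spaced by 2 bases, from position -131 before the RUNX3 start and from position 17 after the RUNX2 start. The 30 bases around each pair are shown to compare the 2 genes, with the ACCACA copies in capitals.
RUNX2 pair: cacaaacaACCACAgaACCACAagtgcggt
RUNX3 pair: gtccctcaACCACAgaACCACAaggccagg
These share the 18 bases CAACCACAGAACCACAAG, a run held by 2 of the 35116 promoters, the same 2 it was taken from. The spaced pair ACCACANNACCACA, a pattern searched after these sequences had been seen, was found on either strand in 4 of them (0.0114%), these 2 included. Matches describe the letters only. The promoter table and the peaks are of different builds, so whether a peak lay on any of these promoters was not analysed here.

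Values below are fragments over a peak's summit per M (mega) reads of its library, recovered from the authors' fold enrichments and p-values. The ChIP libraries held 31.5 M to 37.0 M reads by this recovery. The fewest fragments in a list were 0.326 per M for RUNX1 in DMSO (11 fragments) and 0.381 in AI-10-49 (12 fragments), and 0.252 and 0.324 for H3K27ac. A site missing from a list can therefore still hold fragments, and no fold is given for it. Fragments were 1.13 times longer in AI-10-49 than in DMSO for RUNX1 and 1.09 times for H3K27ac, which bears on each ratio below.

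The 3 loci together had 6 RUNX1 sites in the DMSO list and 24 in the AI-10-49 list. The RUNX1 gene's own window went from 4 sites to 16, the RUNX2 window from 1 to 5 and the RUNX3 window from 1 to 3. Over the genome the lists held 1701 and 10319 sites, a ratio of 6.07, against 4.0, 5.0 and 3.0 at the 3 loci. All 6 DMSO sites overlapped an AI-10-49 site, as did 91.2% of DMSO sites over the genome. Sites of AI-10-49 without a DMSO site were 12 of 16 at RUNX1 (75%, exact Clopper-Pearson 47.6 to 92.7), 4 of 5 at RUNX2 and 2 of 3 at RUNX3, beside 85.1% over the genome. The loci were thus near the background in both shares.

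**Figure D1:**
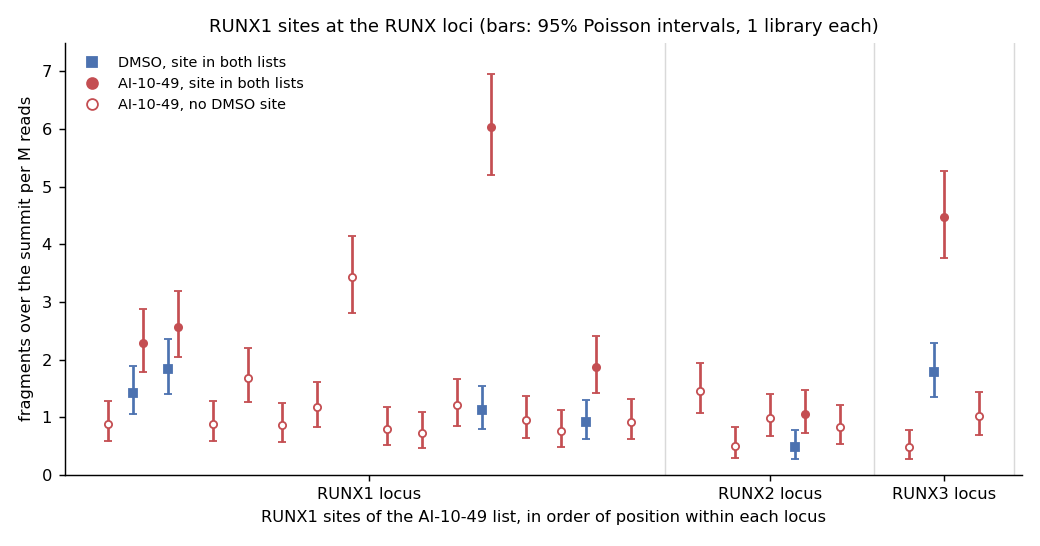
Fragments over the summit per M reads (vertical axis, with 95% Poisson intervals) for each RUNX1 site of the AI-10-49 list, in order of position within each locus, with the DMSO value beside it where the DMSO list held an overlapping site. The highest points are the 6.03 of the RUNX1 locus and the 4.47 of the RUNX3 locus, both at sites that DMSO also held.

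In the RUNX1 window, the site with most RUNX1 after AI-10-49 was chr21:36398883-36399801, with 190 fragments at the summit. The value was 1.13 per M in DMSO (0.796 to 1.54) and 6.03 in AI-10-49 (5.20 to 6.95), so the intervals were far apart. The ratio was 5.36 (3.77 to 7.81), and 96.7% of the 1551 sites shared by the lists had a lower ratio. In the order of −log10 q it stood at place 737 of 1701 in DMSO and at place 38 of 10319 in AI-10-49. The summits of the 2 lists lay 26 bp apart, and the interval was 204 bp wide in DMSO and 919 bp in AI-10-49.

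The other 3 sites that the RUNX1 locus held in both conditions differed less. At chr21:36421409-36421639, 22.33 kb from the strongest summit, the value was 0.918 per M in DMSO and 1.87 after AI-10-49, and their ratio was 2.04 (1.3 to 3.26). At chr21:36180632-36180898 it was 1.42 and 2.28, a ratio of 1.61 (1.1 to 2.37). At chr21:36237869-36238176 it was 1.84 and 2.57, a ratio of 1.4 whose interval (0.993 to 1.98) includes 1. The site with most RUNX1 in DMSO was thus the one with the smallest ratio of the 4, and the order of the sites changed between conditions. By the authors' fold enrichments, which divide by a local background, the ratio of this site was 3.04 and that of chr21:36421409-36421639 was 1.28. Over all sites in both lists the median ratio was 2.1 (quartiles 1.52 and 2.97), and 53.2% of these sites were at least 2-fold higher in AI-10-49, as were 2 of the 4 here. A known enhancer within the first intron of RUNX1 is bound by RUNX1 and other blood factors, but which of these sites lie in introns was not analysed here.

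Of the 12 sites of the RUNX1 locus without a DMSO site, 4 reached 1 fragment per M. The highest was chr21:36280580-36281315, with 108 fragments, 3.43 per M (2.81 to 4.14) and a fold enrichment of 19.1 in the authors' list. Of the whole AI-10-49 list, 4.22% of sites had a higher −log10 q. This site held more RUNX1 after AI-10-49 than 3 of the 4 sites that DMSO held, though the DMSO list had no site within 42.4 kb.

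A group of 4 of the 12 lay within 2.1 kb, in the widest acetylated region of the locus. The strongest of these, chr21:36260890-36261438, had 53 fragments and 1.68 per M (1.26 to 2.20), and chr21:36262027-36262513 had 1.17 per M. The third, chr21:36260419-36260620, had 0.888 per M, and the fourth is among the weakest sites given below. None of the 4 had a DMSO site within 22 kb.

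Others stood beside sites that DMSO held. The site chr21:36401107-36401338 had 0.952 per M and lay 2.05 kb from the strongest summit, and chr21:36179838-36180152 had 0.888 per M and lay 0.48 kb from a DMSO site. Apart from these, chr21:36355918-36356338 had 1.21 per M and chr21:36283724-36283926 had 0.730. The 4 remaining sites had 24 to 29 fragments each, 0.761 to 0.920 per M. Most of the sites seen only in AI-10-49 were therefore weak beside the 2.28 to 6.03 per M of the 3 strongest shared sites. The fourth shared site had 1.87 per M (1.425 to 2.415), an interval that overlapped that of chr21:36260890-36261438 (1.26 to 2.20).

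Acetylation was extensive at RUNX1. H3K27ac covered 34.7% of the window in DMSO (156.1 kb in 122 regions) and 35.9% in AI-10-49 (161.7 kb in 129 regions), compared with 2.22% and 2.02% of the genome. Every site of RUNX1 at this locus lay in acetylated chromatin: the summits of all 16 AI-10-49 sites fell inside a region of the DMSO list and of the AI-10-49 list. Over the genome, 76.2% of AI-10-49 summits lay inside a DMSO region and 68.4% inside an AI-10-49 region. Counted by overlap of the intervals, the genome shares were 89.8% and 86.1%, and again all 16 sites of the locus overlapped. The 12 sites without a DMSO site thus fell on regions that were also acetylated in DMSO. The 16 sites fell into 7 of the 122 DMSO regions (5.74%), beside 13.8% of regions over the genome, and these included the 4 widest. Per 100 kb of DMSO acetylated length the locus had 10.25 AI-10-49 sites, against 15.02 over the genome.

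**Figure D2:**
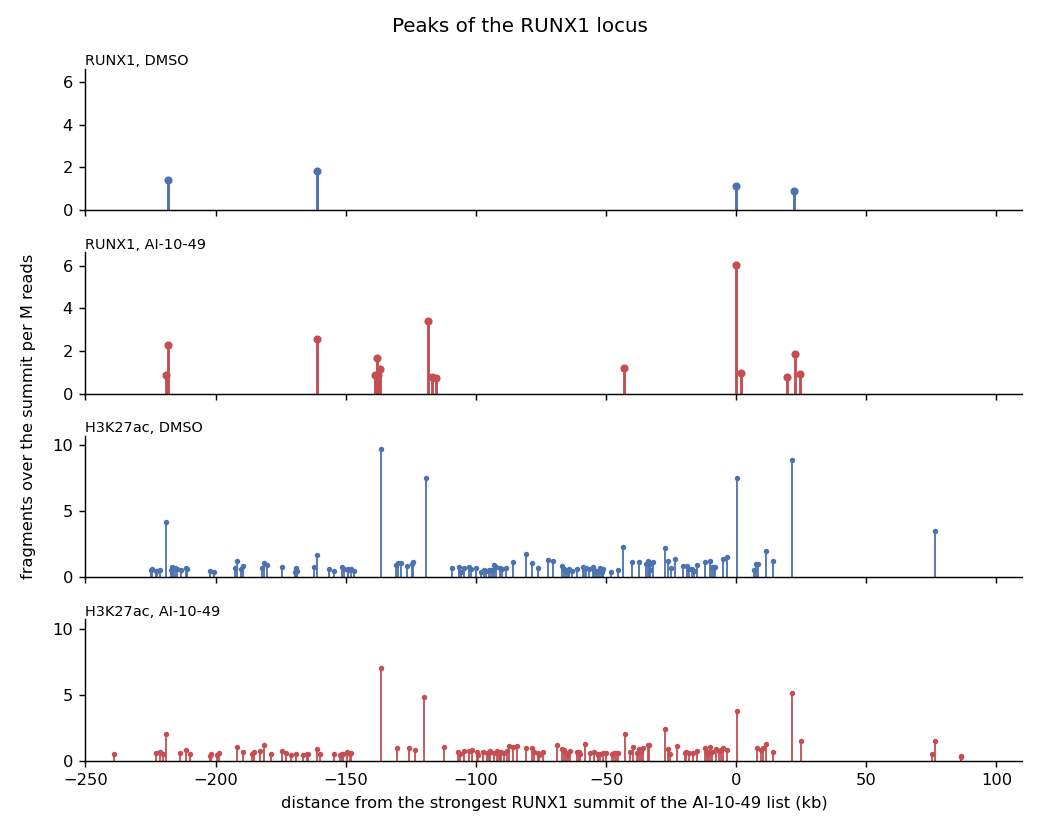
Peaks of the RUNX1 locus by distance from the strongest RUNX1 summit of AI-10-49 (horizontal axis, kb), with fragments over the summit per M reads (vertical axis), in 1 panel for each antibody and condition. The 16 RUNX1 sites of AI-10-49 stand at a few of the tallest acetylation summits, which are lower in AI-10-49 than in DMSO, while most of the 122 and 129 acetylated regions are low in both.

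The acetylated regions that held RUNX1 in DMSO had about 0.5 times the DMSO acetylation after AI-10-49. At chr21:36396319-36405376, which holds the strongest RUNX1 site, acetylation was 7.54 per M in DMSO and 3.79 after AI-10-49, a ratio of 0.502 (0.406 to 0.618). Here RUNX1 was higher and acetylation lower in the same place, with the RUNX1 summit of AI-10-49 279 bp from that condition's acetylation summit. At chr21:36414085-36424556 acetylation was 8.85 and 5.14 per M, a ratio of 0.580 (0.482 to 0.697).

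The remaining pair of such regions had similar ratios at lower levels. At chr21:36178904-36181762 the values were 4.18 and 2.06 per M, a ratio of 0.492 (0.368 to 0.653). At chr21:36237457-36239464 they were 1.71 and 0.865 per M, a ratio of 0.506 (0.319 to 0.789). All 4 intervals lay below 1. Over the genome the median ratio of regions with a DMSO site was 0.660 (1329 regions, 92.9% of them lower in AI-10-49). At the shared RUNX1 sites inside these 4 regions the RUNX1 ratio ran from 1.4 to 5.36. The acetylation ratio ran from 0.492 to 0.580, with intervals that reached from 0.319 to 0.789. Whether the 2 ratios were related was not tested.

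Regions with AI-10-49 sites alone had smaller differences. The median ratio of these 3 regions was 0.718, near the 0.714 of such regions over the genome (7530 regions, 85.4% of them lower in AI-10-49). The widest region of the locus, chr21:36252688-36268066 (15.4 kb, the place of the 4 clustered sites), had 9.75 per M in DMSO and 7.0 after AI-10-49, a ratio of 0.718 (0.609 to 0.846). It stood at place 35 by width among the 67087 DMSO regions, and in AI-10-49 it was 16.1 kb wide. The next widest, chr21:36275686-36289810 (14.1 kb), which holds the strongest site seen only in AI-10-49, had 7.54 and 4.87 per M, a ratio of 0.646 (0.532 to 0.783). It overlapped 3 regions in AI-10-49, the widest of them 9.89 kb. At chr21:36354150-36358007 the ratio was 0.884 (0.639 to 1.22), which includes 1.

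Of 2 high regions without any RUNX1 site, 1 was lower. At chr21:36474448-36476050, 76.22 kb from the strongest RUNX1 summit and chosen after its values were seen, acetylation was 3.47 per M in DMSO and 1.49 after AI-10-49, a ratio of 0.428 (0.306 to 0.593). At chr21:36367867-36372540, also without a site and chosen the same way, it was 2.21 and 2.43 per M, a ratio of 1.1 (0.804 to 1.51). Lower acetylation was thus seen at 1 of these 2 regions. Their median ratio was 0.764, against 0.613 for the 6 regions of at least 2 per M with a RUNX1 site of AI-10-49.

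Over all regions of RUNX1 the differences were small on average. For the 109 DMSO regions in both lists, strong and weak, the median ratio was 1.01 (quartiles 0.858 and 1.25), against 0.838 for all 47607 such regions. At least 1.5-fold lower were 10 of the 109 (9.17%, beside 29.1% over the genome), and at least 1.5-fold higher were 13 (11.9%, beside 12.8%). These counts depend on the pairing, since small DMSO regions can share 1 large AI-10-49 partner with their neighbours. In an alternative added after seeing the data, the 29 regions that overlap exactly 1 region of the other list (1-to-1 pairs) included 3 at least 1.5-fold lower (beside 30.5% over the genome) and 0 higher (beside 5.72%). The DMSO level is also the denominator of the ratio. Among regions of at least 2 fragments per M, 7 of 8 were lower (beside 94.9% over the genome), with a median of 0.613. Among the 74 regions under 1 per M the median was 1.15. Regions entered only where AI-10-49 also listed a region. At 2 per M or more this dropped 0 of 8 regions at the locus and 57 of 16200 over the genome. Under 1 per M it dropped 13 of 87 and 18079 of 39212. How far this filter shaped the medians was not tested. Over the genome the medians at these levels were 0.646 and 1.15. With 1-to-1 pairs the median under 1 per M was nearer to 1, 1.07 at the locus (21 regions) and 1.05 over the genome. Between 1 and 2 per M, 25 of 27 regions were lower (beside 79.0% over the genome), with a median of 0.889 against 0.734 over the genome. The 1-to-1 pairs of that level, 6 of 6 lower (beside 5584 of 6597 over the genome), had a median of 0.761 against 0.697. The side of 1 on which the locus median fell was not stable, since it was 0.965 with 1-to-1 pairs and 0.924 after correction for fragment length.

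Regions of 1 list only were weak at RUNX1. They numbered 13 in DMSO (10.7% of 122, beside 29.0% over the genome) and 25 in AI-10-49 (19.4% of 129, beside 21.0%). Their summits had 0.364 to 0.757 per M in DMSO and 0.324 to 0.757 in AI-10-49. The highest −log10 q among those of DMSO belonged to chr21:36182212-36182636 (0.757 per M), chr21:36183116-36183929 (0.728) and chr21:36174161-36174416 (0.560). Among those of AI-10-49 it belonged to chr21:36215807-36216961 (0.757 per M), chr21:36226177-36226469 (0.622) and chr21:36200320-36200710 (0.595). None of these 6 held a RUNX1 site, and 8 of the 13 and 12 of the 25 lay within 1 kb of a region of the other list.

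RUNX3 had 1 strong RUNX1 site in a window with little acetylation. The 2 DMSO regions that this site overlapped had 1.93 and 1.26 per M, above the genome median of 0.813. At chr1:25198824-25199493 RUNX1 was 1.78 per M in DMSO (1.36 to 2.29) and 4.47 in AI-10-49 (3.77 to 5.28), and the intervals did not overlap. The ratio was 2.52 (1.85 to 3.47), above 63.4% of the sites in both lists. In the authors' lists its fold enrichment was 7.66 in DMSO and 31.1 after AI-10-49, a ratio of 4.06, with a local background of 6.96 fragments in DMSO and 3 in AI-10-49. By −log10 q it stood at place 110 of 10319 in AI-10-49, among the strongest 1.06%.

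The other RUNX3 sites were seen only in AI-10-49. One, chr1:25198529-25198737, lay 0.56 kb from the strongest summit and was near the lower end of the list, with 15 fragments and 0.476 per M (0.266 to 0.785). The third site, chr1:25281613-25281873, lay 82.59 kb away and had 32 fragments, 1.02 per M (0.694 to 1.43). It overlapped no acetylated region of either condition and was the only site of the 24 without one in either list. The nearest DMSO region was 65676 bp from its summit, and the nearest AI-10-49 region, chr1:25281326-25281556, was 213 bp away with 0.514 per M and a −log10 q of 1.91, and was itself absent from the DMSO list.

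H3K27ac covered 0.889% of the RUNX3 window in DMSO (1.42 kb in 3 regions) and 0.705% in AI-10-49 (1.13 kb in 4 regions), less than over the genome. The strongest RUNX1 site lay in a dip between acetylated regions, with its AI-10-49 summit 64 bp outside the nearest DMSO region and 29 bp outside the nearest AI-10-49 region. On one side, chr1:25198355-25199119 had 1.93 per M in DMSO and 0.622 after AI-10-49, a ratio of 0.322 (0.191 to 0.522). Of all DMSO regions in both lists 0.9% had a lower ratio, which places the ratio beside this site among the lowest of the lists. On the other side, chr1:25199362-25199719 had 1.26 and 0.595 per M, a ratio of 0.472 (0.270 to 0.802), lower than in all but 7.7% of regions. Each was at least 1.5-fold lower, and each was narrower or split in AI-10-49: the first had 2 pieces, chr1:25198415-25198624 and chr1:25198678-25199154, and the second was chr1:25199373-25199582. By the authors' fold enrichments, the median ratio of these 2 DMSO regions was 0.585 in place of 0.397 by fragments. The median local background of the window's regions was 7.0 fragments in DMSO and 3.52 in AI-10-49, against 4.61 and 3.36 over the genome. The third DMSO region, chr1:25190739-25191037 with 0.644 per M, had no AI-10-49 region within 7.38 kb.

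At RUNX2 the AI-10-49 sites were of middling height, with a median of 0.984 per M beside 1.05 over the genome. Its 1 DMSO site, chr6:45422026-45422174, had 16 fragments and 0.474 per M (0.271 to 0.769), and in AI-10-49 it had 33 fragments and 1.05 per M (0.721 to 1.47). The ratio was 2.21 (1.18 to 4.30), close to the median of all sites in both lists. Of the whole DMSO list, 86.24% of sites had a higher −log10 q. Around it the DMSO list had 2 narrow acetylated regions, chr6:45421743-45422101 (0.616 per M) and chr6:45422190-45422743 (0.728 per M), and neither overlapped an AI-10-49 region. The AI-10-49 summit lay 735 bp from the nearest AI-10-49 region, chr6:45421135-45421431. That region had 0.487 per M, was absent from the DMSO list and lay 0.31 kb from chr6:45421743-45422101. RUNX1 was thus higher at a site that overlapped acetylated regions of DMSO alone, with weak regions of both conditions close by.

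The 4 sites of RUNX2 seen only in AI-10-49 lay in regions acetylated in both conditions. The strongest was chr6:45345186-45345933, with 46 fragments and 1.46 per M (1.07 to 1.95). The site chr6:45413531-45413835 had 0.984 per M, chr6:45463606-45463870 had 0.825 and chr6:45406862-45407045 had 0.508. These values overlapped in their intervals, except that the weakest lay below the strongest. Every value was under the 4.47 of the RUNX3 site and the 6.03 of the RUNX1 site.

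**Figure D3:**
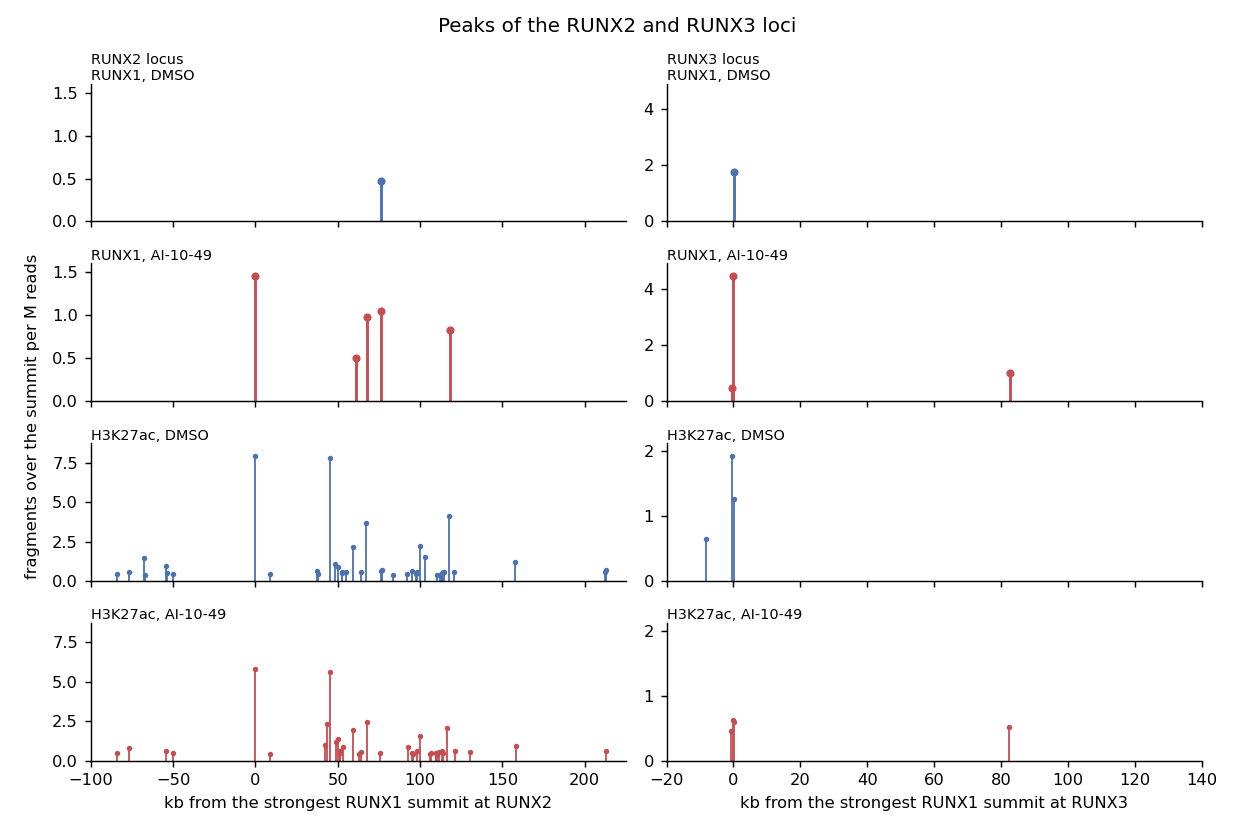
Peaks of the RUNX2 locus (left) and RUNX3 locus (right) by distance from each locus' strongest RUNX1 summit of AI-10-49 (horizontal axis, kb), with fragments over the summit per M reads (vertical axis, scaled for each locus and antibody). RUNX2 has up to 7.93 per M of acetylation beside RUNX1 values up to 1.46, and RUNX3 has up to 1.93 per M of acetylation beside a RUNX1 value of 4.47.

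H3K27ac covered 14.8% of the RUNX2 window in DMSO (47.4 kb in 40 regions) and 14.5% in AI-10-49 (46.5 kb in 37 regions). The region around the strongest RUNX1 site, chr6:45344627-45347051, had the highest acetylation of the locus, 7.93 per M in DMSO and 5.81 after AI-10-49, a ratio of 0.733 (0.611 to 0.878). The widest DMSO region, chr6:45387030-45393779 (6.75 kb), had 7.79 and 5.60 per M, a ratio of 0.718 (0.597 to 0.863). It held no RUNX1 site, and 3 AI-10-49 regions took its place. The 2 most acetylated regions, 1 with a RUNX1 site and 1 without, thus had like ratios.

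The other RUNX2 regions with a RUNX1 site varied more. At chr6:45460656-45466227 acetylation was 4.12 and 2.08 per M, a ratio of 0.505 (0.379 to 0.670), and the summit of AI-10-49 lay 1406 bp from that of DMSO. At chr6:45410810-45415151 it was 3.70 and 2.46 per M, a ratio of 0.665 (0.504 to 0.875). At chr6:45401323-45407853 it was 2.13 and 1.92 per M, a ratio of 0.901 (0.643 to 1.26), which includes 1.

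Over all RUNX2 regions the differences were again small on average. The median ratio of the 29 DMSO regions in both lists, strong and weak, was 1.02 (quartiles 0.755 and 1.4), with 3 at least 1.5-fold lower (10.3%, beside 29.1% over the genome) and 5 at least 1.5-fold higher (17.2%, beside 12.8%). Among the 17 regions in 1-to-1 pairs, 2 were lower (beside 30.5% over the genome) and 1 was higher (beside 5.72%) by this measure. The median ratio here too fell below 1 under other settings, to 0.908 with 1-to-1 pairs and 0.934 after correction for fragment length. Among the 6 regions of at least 2 fragments per M, all were lower (beside 94.9% over the genome), with a median of 0.713. Among the 20 under 1 per M the median was 1.14 (1.01 for the 13 in 1-to-1 pairs). Another 10 of the 30 DMSO regions under 1 per M had no AI-10-49 region and were left out. Regions of 1 list only numbered 11 in each condition, 27.5% of DMSO regions (beside 29.0% over the genome) and 29.7% of AI-10-49 regions (beside 21.0%). Most of these were weak, but chr6:45277578-45278805 of the DMSO list had 52 fragments, 1.46 per M and a −log10 q of 23.1, with no AI-10-49 region within 8.46 kb. It was the strongest region of 1 list only at any of the 3 loci. By −log10 q the next of DMSO alone were chr6:45292206-45292557 (0.504 per M) and chr6:45421743-45422101, given above. Of AI-10-49 alone, chr6:45397191-45397552 had 0.622, chr6:45476186-45476452 had 0.541 and chr6:45396719-45397091 had 0.514 per M.

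**Figure D4:**
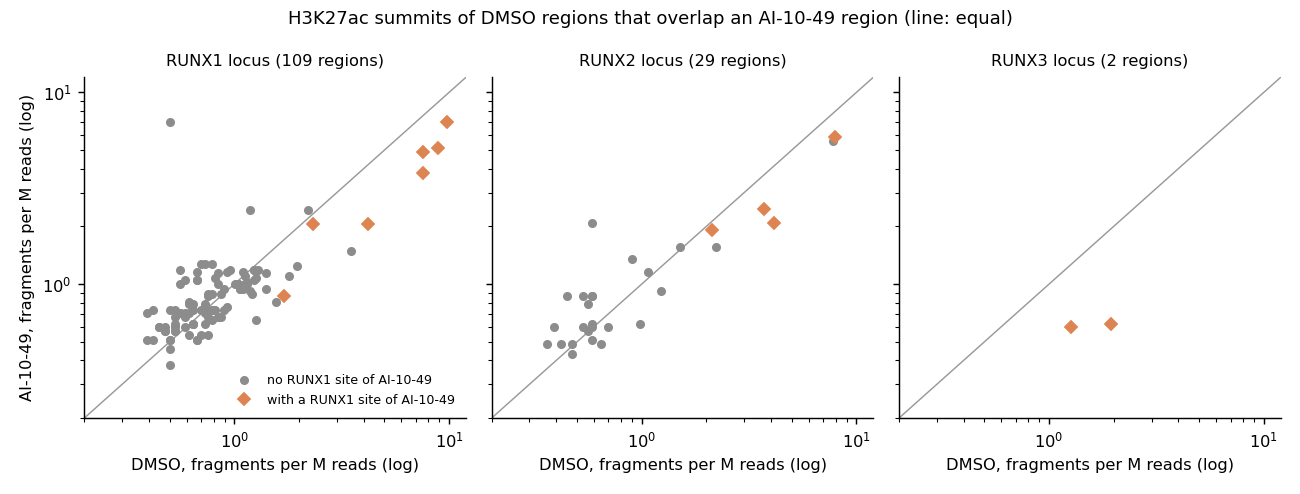
H3K27ac fragments over the summit per M reads in DMSO (horizontal axis, log scale) and AI-10-49 (vertical axis, log scale) for the DMSO regions of each locus that overlap an AI-10-49 region. Diamonds are regions with a RUNX1 site of AI-10-49, and all 13 lie below the line of equal values, as do most regions of at least 2 per M with or without a site.

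Across the 3 loci, 15 DMSO regions held a RUNX1 site of AI-10-49. Of these, 13 were in both acetylation lists, all 13 had fewer fragments in AI-10-49, and the interval of the ratio lay below 1 for 11. Such regions were lower in 86.5% of cases over the genome, so the count of 13 is near the background. The genome share with an interval below 1 was not analysed here, so the 11 cannot be set against a background. Over the genome, regions with an AI-10-49 site had a median ratio of 0.705, against 0.889 for regions without one. At high levels the genome's order was the opposite: among regions of at least 2 per M its medians were 0.674 with a site and 0.627 without. The loci did not show this opposite order. At RUNX1 the medians of this level were 0.613 with a site (6 regions) and 0.764 without (2 regions). At RUNX2 they were 0.699 (4 regions) and 0.713 (2 regions). At the RUNX1 and RUNX2 loci together, 14 regions reached 2 per M, 13 of them were lower in AI-10-49 (beside 94.9% at this level over the genome), and 10 held a RUNX1 site. Of these 14 regions, 10 had an interval below 1, again without a genome share to set beside them. RUNX3 had no region of this level. Whether RUNX1 binding bears on acetylation at these loci was not tested.

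The 3 windows ordered differently by the 2 antibodies. By the strongest RUNX1 site after AI-10-49, the RUNX1 window had 6.03 per M, that of RUNX3 4.47 and that of RUNX2 1.46. The RUNX1 and RUNX3 values overlapped slightly in their intervals (5.20 to 6.95 and 3.77 to 5.28), and that of RUNX2 lay below both. By the highest acetylation in DMSO, the RUNX1 window had 9.75 per M, that of RUNX2 7.93 and that of RUNX3 1.93. Which gene each of these peaks belongs to was not analysed here. A RUNX3 window wider by 50 kb on each side held 8 RUNX1 sites of AI-10-49 in place of 3.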

How the data were processed

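Chromatin of ME-1 cells was precipitated for RUNX1 or H3K27ac (both Abcam antibodies, per the labels). Peak lists came with 4 of the 6 libraries, and the 2 inputs were not analysed here on their own. Per the submitters' processing notes, the tools included MACS2 2.1.0, Bowtie2 2.1.0, Picard 1.96, SAMtools 1.3 and CASAVA 1.4, with build hg19. For the input behind each list, the choice is not given in the sources here. Peaks were listed per library.

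In each deposited list, the ratio is the authors' fold enrichment of the summit relative to local background. Its −log10 p and −log10 q are likewise deposited values of the authors. The deposited score was not used, and the deposited summit offset (in bp) placed each summit.

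Fold enrichment and −log10 p of a peak fix its number of summit fragments and its Poisson background once the factor scaling ChIP to input is known. That factor was taken where fragment numbers came out whole, and 100% of peaks were solved to within 0.003 of their −log10 p. Read totals assume the genome size 2700000000 bp of the MACS2 human preset. Fragment lengths were taken from the shortest peak (149 bp and 169 bp for RUNX1 in DMSO and AI-10-49, 192 bp and 210 bp for H3K27ac). The recovery and the motif search were tested on simulated data.

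An overlap of 1 bp or more made 2 peaks shared. A DMSO region was set against the overlapping AI-10-49 region with most fragments. Ratios carry exact conditional intervals of 2 Poisson counts, levels exact Poisson intervals and shares exact Clopper-Pearson intervals (95%). No test between conditions was made. Python 3.11.15, numpy 2.4.6, pandas 2.3.3, scipy 1.17.1 and matplotlib 3.10.9 were used.

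Named were the RUNX1 sites of both lists and the 8 others with the highest −log10 q (all where a locus held up to 15), the 3 widest H3K27ac regions of each list, those with a RUNX1 site, and, by −log10 q, the 3 highest found in a single list. The members and lists were chosen with earlier results of these data known. Gene parts under each peak, motifs at peaks and marker genes of the cell type were not analysed here, since no hg19 annotation or sequence was at hand. Alternatives for threshold, overlap, window, unit and pairing are given in the closing section.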

Additional observations from a re-analysis of the deposited data

How the results depend on the processing

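No paired analysis was possible because each antibody and condition had a single library. Of 126 alternative values, 77 stayed within their limits. With −log10 q limited to 10 or more, the RUNX1 locus had 9 AI-10-49 sites and 46 (DMSO) and 38 (AI-10-49) H3K27ac regions, RUNX2 had 0 DMSO and 3 AI-10-49 sites and 13 regions in each condition, and RUNX3 had 0 AI-10-49 regions. Of sites with at least 1 fragment per M reads, RUNX1 had 8 in AI-10-49, and RUNX2 had 0 in DMSO and 2 in AI-10-49. With the RUNX3 window widened by 50 kb it held 3 and 8 RUNX1 sites and 9 and 8 H3K27ac regions in DMSO and AI-10-49. At a −log10 q of at least 5, RUNX3 had 1 AI-10-49 region and its covered length was 0.425 times that of DMSO. Regions of 1 list only depended most on the overlap asked for. With 50% of both intervals they numbered 72 (DMSO) and 79 (AI-10-49) at RUNX1, 24 and 21 at RUNX2, and 2 in AI-10-49 at RUNX3. With intervals within 1 kb taken as shared they numbered 5 and 13 at RUNX1 and 5 and 3 at RUNX2, and 1 RUNX3 site of AI-10-49 lacked a DMSO site. At a −log10 q of at least 5 they numbered 2 and 10 at RUNX1, 6 and 5 at RUNX2 and 0 and 0 at RUNX3. By the authors' fold enrichments the RUNX1 ratio was 3.04 at chr21:36237869-36238176, 1.28 at chr21:36421409-36421639 and 4.06 at the strongest RUNX3 site, whose local backgrounds differed between conditions. The median H3K27ac ratio crossed 1: corrected for fragment length it was 0.924 at RUNX1 and 0.934 at RUNX2, with 1-to-1 pairs 0.965 and 0.908, and by fold enrichment 0.994 at RUNX2. With 1-to-1 pairs, an alternative chosen after seeing the data for these counts, regions at least 1.5-fold lower numbered 3 at RUNX1 and 1 at RUNX3, and those at least 1.5-fold higher 0 at RUNX1 and 1 at RUNX2. With the RUNX1 summit required inside a region, RUNX3 had 0 DMSO sites in regions of either condition, and 1 and 0 AI-10-49 sites in DMSO and AI-10-49 regions. Except for fragment length and pairing, which change the values by construction, the cause was not tested. Depth limits the weak peaks: a DMSO RUNX1 site under 11 fragments was never listed.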
